A study of Mus musculus with 6 samples.

Results

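Cassette exons are exons that a transcript can include or skip. Those described here were longer than 30 bases and a multiple of 3 bases in length, so that inclusion or skipping leaves the reading frame of the rest of the message in place where the exon lies within coding sequence. They were taken from the skipped exon table of a splicing analysis of heart ventricle from 1-day-old C57BL6 mice, with 3 libraries from mice with a knockout of Rbpms (Rbpms KO) and 3 from wild-type mice (WT). Stranded libraries were made from polyadenylated RNA with the KAPA mRNA HyperPrep kit. The labels do not describe the knockout allele or say how many animals went into a library, so a p-value speaks for these libraries and nothing beyond them. The rule found 10361 such exons among 24641 distinct cassette exons of the table, in 5818 genes. The other exons were 13679 of over 30 bases whose length shifts the frame and 601 microexons of 30 bases or fewer.

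Rbpms is an RNA-binding protein with an RNA recognition motif that binds as a dimer to pairs of CAC sequences, and it is known in smooth muscle as a switch between forms of cytoskeletal transcripts. A frame-keeping exon that is coding throughout and holds no stop codon adds or removes a stretch of protein without cutting the protein short. In heart and other muscle such exons distinguish fetal and adult, or muscle and non-muscle, forms of many sarcomere and adhesion proteins. The inclusion level of an exon is the share of messages that carry it, estimated from reads across its splice junctions and corrected for the length of the included and skipped forms.

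The headers of the splicing table call its sets the first and the second and name no genotype. Over 5 exons of Rbpms itself, the second set had 17, 9 and 6 junction reads and the first set had 1286, 1538 and 1570. The second set is therefore called the Rbpms KO set and the first the WT set. Rbpms is no result here, and the position of a library in a set is not tied to its replicate number. The members had 1413982 to 1529589 junction reads in each Rbpms KO library and 1705971 to 1771869 in each WT library. Across the exons tested, pairs of libraries from the same set differed by an SD of 7.28 to 8.93 percentage points, against 9.17 to 10.5 points for pairs from different sets.

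The sequences printed here are of called exons and belong to 9 genes. They include the related 33-base exons of Camk2g and Camk2d, the exons of Camk2d and Clta that moved in opposite directions, and further exons described below. They were read from GENCODE mouse release 21 transcripts on GRCm38 in the direction of the transcript, 5′ to 3′. Capitals mark a pair of CAC triplets separated by 1 to 12 bases, which only the Actn1 exon holds among those printed.
Camk2g (33 bases, chr14:20747819-20747851, minus strand): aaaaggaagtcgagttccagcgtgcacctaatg
Camk2d (33 bases, chr3:126802937-126802969, plus strand): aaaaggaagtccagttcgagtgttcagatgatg
Camk2d (60 bases, chr3:126805857-126805916, plus strand): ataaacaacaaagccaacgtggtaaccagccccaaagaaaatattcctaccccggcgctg
Clta (54 bases, chr4:44030215-44030268, plus strand): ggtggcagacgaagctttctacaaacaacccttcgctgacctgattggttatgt
Clta (36 bases, chr4:44031400-44031435, plus strand): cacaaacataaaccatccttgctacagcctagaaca
Actn1 (81 bases, chr12:80170686-80170766, minus strand): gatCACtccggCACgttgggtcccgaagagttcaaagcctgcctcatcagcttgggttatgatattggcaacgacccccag
Map3k7 (81 bases, chr4:31994874-31994954, plus strand): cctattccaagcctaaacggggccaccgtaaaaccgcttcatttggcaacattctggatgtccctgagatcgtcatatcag
Cttn (111 bases, chr7:144450978-144451088, minus strand): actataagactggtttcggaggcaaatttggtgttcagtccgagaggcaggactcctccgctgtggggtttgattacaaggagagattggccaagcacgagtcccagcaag
Mlf1 (45 bases, chr3:67390978-67391022, plus strand): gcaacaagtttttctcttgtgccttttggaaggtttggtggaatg
Asph (42 bases, chr4:9624360-9624401, minus strand): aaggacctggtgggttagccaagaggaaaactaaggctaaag
Vegfa (72 bases, chr17:46022277-46022348, minus strand): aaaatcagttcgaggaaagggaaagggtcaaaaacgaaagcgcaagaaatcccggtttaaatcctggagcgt

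Inclusion of frame-keeping exons moved in both directions in Rbpms KO ventricle. Of 2019 members with enough reads and an inclusion that was not near 0 or 100%, 89 passed the test (quasi-binomial model of the junction reads, Benjamini-Hochberg adjusted p below 0.05 over all 4236 exons tested). They made up 4.41% of the members tested, and over all exons tested 3.16% were called. A total of 44 members were higher in the Rbpms KO set and 45 were lower, which is 2.18 and 2.23% of those tested, beside 1.53 and 1.63% of all exons. The 89 exons lay in 73 genes and, after joining 4 overlapping pairs, at 85 places. The largest rise was in Actn1, an actin crosslinker, and the largest fall in Ttn, the giant spring protein of the sarcomere.

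Over all members tested, called or not, the difference was small at the median. The median difference over all 2019 was -0.1 points and the median absolute difference 2.83 points, against 2.6 points over all exons. A difference of at least 10 points was seen in 225 of the 2019 members and in 72 of the 89 called exons. The 3 Rbpms KO levels lay entirely above or below the 3 WT levels for 83 of the 89. The same held for 312 of all 2019 members, which is 15.5%, and for 13.5% of all exons tested. An unadjusted p below 0.05 was reached by 241 members. The authors' deposited table gave an FDR below 0.05 for 111 of the members tested, which is 5.5% beside 3.99% of all exons tested. Of these, 80 were among the 89, and 72.1% of the authors' list and 89.9% of the called list were shared. Of the 89 calls, 39 held in each of 6 fits that left out 1 library and 50 were lost in at least 1. The fitted dispersion followed the depth of an exon and not its own spread. An adjusted p of this test therefore does not measure how the libraries of a set vary at that exon. A test on the spread of the levels, limma, lost 29 of the calls. Those described in what follows are the exons of Ank3, Lrrfip1, Ablim1, Dnm1l, Map4, Tead1, Plekhm2, Enah, Ltbp3, Larp4b, Ociad1 and Actb. Also lost were the 36-base and 450-base exons of Epb41, the 189-base exon of Nexn, the 72-base exon of Ktn1, the 69-base exon of Clasp1 and the 54-base exon of Vegfa.

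**Figure D1:**
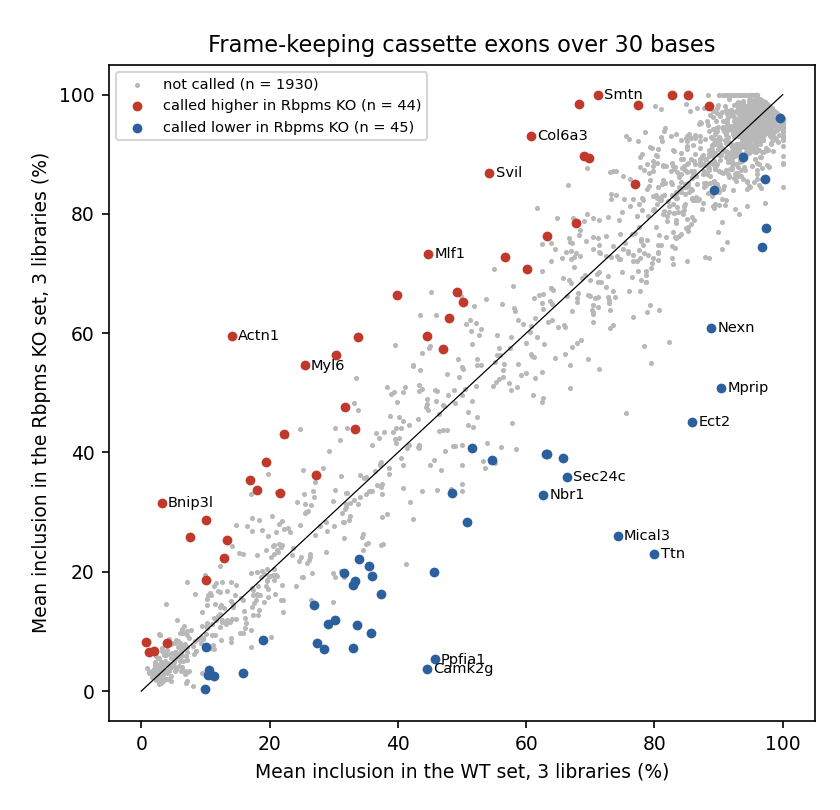
Mean inclusion level in the Rbpms KO set (vertical axis, %) against the WT set (horizontal axis, %) for the 2019 frame-keeping exons tested, each a point. Red points are the 44 exons called higher in Rbpms KO, blue points the 45 called lower and grey points the rest, and most grey points crowd the upper right corner near full inclusion.

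Called exons were mostly alternative in both sets. The median inclusion of the 44 exons that rose was 59.5% in the Rbpms KO set and 36.8% in the WT set. For the 45 that fell it was 19.9% in the Rbpms KO set and 44.5% in the WT set. Across all members tested the median was 88.8% in the Rbpms KO set and 89.1% in the WT set, and 971 of the 2019 had a WT mean above 90%. Of the 44 rises, 38 started from a WT mean between 10 and 90%, and so did 38 of the 45 falls. The median size of a change was 16 points among the rises and 18.3 points among the falls.

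**Figure D2:**
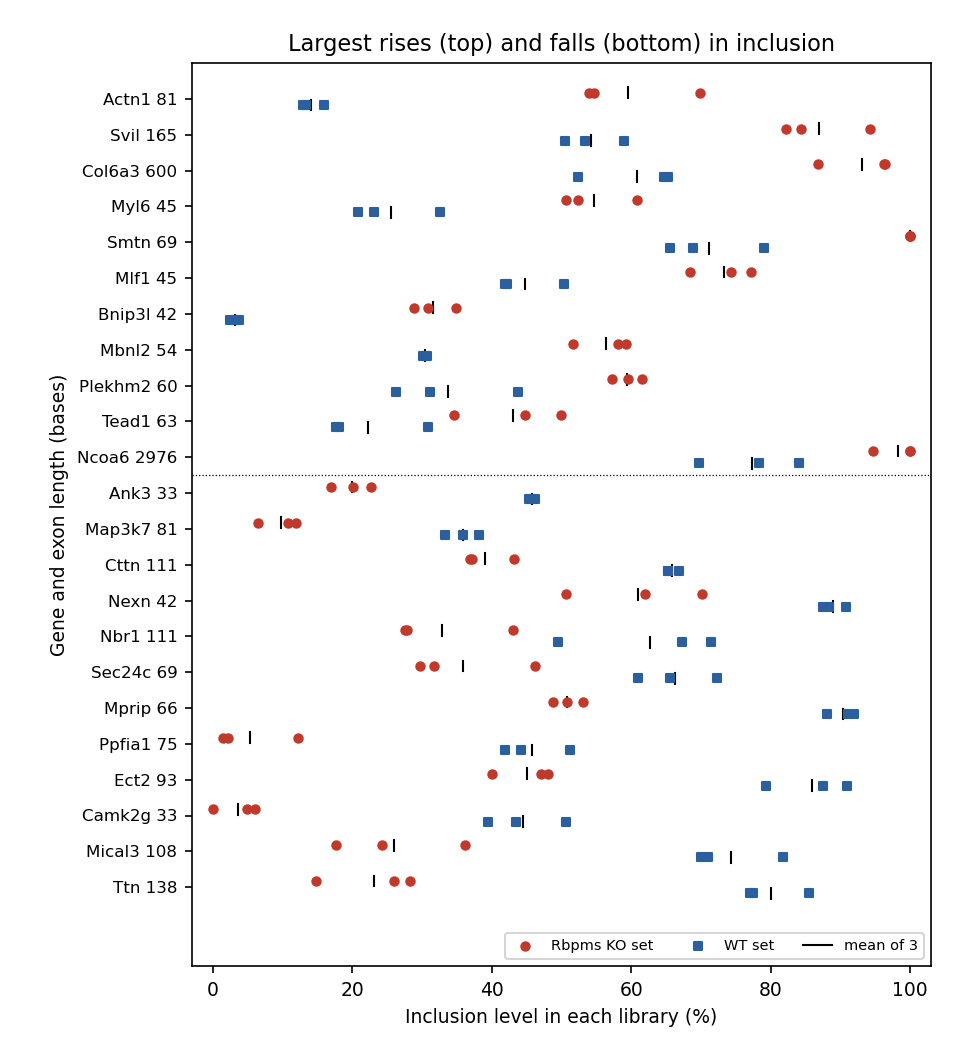
Inclusion level (%) in each library for 11 of the 12 largest rises and the 12 largest falls among called exons without overlap between sets, 1 exon a gene, labelled with gene and exon length in bases. Red circles are the 3 Rbpms KO libraries, blue squares the 3 WT libraries and black ticks the means, and for each exon the red points lie on one side of all blue points.

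The list named for the sarcomere and the Z-disc, the plate that anchors thin filaments, held some of the largest changes. It also holds genes not particular to the sarcomere, among them Actn1, Svil and Lrrfip1, and its rises were in Actn1 and Svil. Of 32 exons tested in this list, 2 rose, 4 fell and 26 did not pass, which is 18.8% called beside 4.41% of all members, with a median absolute difference of 2.43 points beside 2.83 over all members. This list and those below were chosen with earlier results of these data known. Their shares called are descriptions and no test of a protein family. Inclusion of a 138-base exon of Ttn (chr2:76965777-76965914, coding throughout), toward the start of the gene that codes for the Z-disc end of titin, was 14.8, 28.3 and 26.0% in the Rbpms KO libraries, against 85.5, 77.0 and 77.5% in the WT libraries. The sets were far apart, and the mean fell by 57.0 points to 23.0 ± 7.22% in the Rbpms KO set, against 80.0 ± 4.77% in the WT set (SD over 3 libraries, adjusted p = 4.85e-20). A further pair of Ttn exons tested had means of 96.3% or more in both sets and did not pass.

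The 81-base exon of Actn1 was included at 54, 69.8 and 54.7% in the Rbpms KO libraries, against 13.4, 16 and 12.9% in the WT libraries. It codes for part of the calcium-binding EF-hand region of alpha-actinin-1 and is known as the alternative to a smooth muscle exon. The rise was 45.4 ± 5.24 points (SE, adjusted p = 4.81e-17), and every Rbpms KO library was above every WT library. In Svil, which codes for supervillin, a membrane-bound actin and myosin II binder, a 165-base exon (chr18:5057275-5057439) rose by 32.6 ± 4.47 points to 86.9 ± 6.41% in the Rbpms KO set, against 54.3 ± 4.33% in the WT set. Both exons were called in all 6 fits that left out 1 library.

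Myom1 codes for myomesin-1, which links thick filaments at the M-band. Its 294-base exon (chr17:71082203-71082496) was included at 6.6, 9.6 and 8.0% in the Rbpms KO libraries, against 27.1, 26.1 and 28.8% in the WT libraries. The libraries of each set agreed within a few points, and the fall was 19.3 ± 1.17 points (SE). The quasi-binomial test, at 478 to 615 reads a library, gave an adjusted p = 7.01e-32. A 93-base exon of Nebl (chr2:17370459-17370551), the gene of the Z-disc protein nebulette, was included at 77.7 ± 6.43% in the Rbpms KO set, against 97.4 ± 0.361% in the WT set. Lrrfip1, which the list also holds, had a small fall of 3.53 points at an exon near full inclusion, and that call was lost in each of the 3 fits that left out a library and still tested it, those without a WT library.

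Regulators of actin and of the membrane skeleton made up the list with the most exons tested. Of 66, 6 rose, 11 fell and 49 did not pass, so 25.8% were called beside 4.41% of all members, and their median absolute difference was 5.82 points. Mical3, an enzyme that oxidises actin filaments, had a 108-base exon (chr6:121009777-121009884) at 36.2, 17.6 and 24.2% in the Rbpms KO libraries, against 81.8, 70.0 and 71.0% in the WT libraries. This fall of 48.3 ± 6.63 points was the second in size after Ttn (adjusted p = 1.54e-08). Mprip codes for a protein that brings myosin phosphatase to actin fibres. Its 66-base exon (chr11:59772152-59772217) was included at 48.7, 50.8 and 53.0% in the Rbpms KO libraries, against 91, 92 and 88.1% in the WT libraries (adjusted p = 1.53e-23). The Mprip exon holds an annotated stop codon, so its inclusion changes the end of the protein and does not simply insert residues.

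Cttn codes for cortactin, whose actin-binding repeats are each as long as its 111-base exon printed above. Inclusion of that exon was 36.9, 43.2 and 37.1% in the Rbpms KO libraries, against 65.3, 65.3 and 66.8% in the WT libraries, a fall of 26.7 ± 2.13 points (adjusted p = 3.06e-08). Cald1, whose product caldesmon restrains myosin on actin, was called through a pair of overlapping exons of 84 and 78 bases that share their 3′ end. The shorter form was included at 11.1 ± 2.74% in the Rbpms KO set, against 33.6 ± 4.05% in the WT set, and the longer form at 16.3 ± 3.81%, against 37.4 ± 3.96%. They share reads and are not independent. Macf1, a linker of microtubules and actin, fell at a 102-base exon (chr4:123354479-123354580) to 7.03 ± 1.86% in the Rbpms KO set, against 28.5 ± 3.96% in the WT set. A 33-base exon of Ank3, the gene of the membrane adaptor ankyrin-G, was at 19.9 ± 2.85% in the Rbpms KO set, against 45.7 ± 0.458% in the WT set, but it had as few as 22 reads in a library and its call was lost in all 6 fits that left out 1.

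Overlapping exons of Ablim1, an actin-binding LIM protein, rose by 15.1 and 16 points, with both calls lost without the first or second Rbpms KO library or without any WT library. A 63-base exon of Sptan1, the gene of alpha-spectrin, fell by 15.9 ± 1.66 points (adjusted p = 0.000311), and a 60-base exon of Sptan1 at 40.8 ± 2.87% in the Rbpms KO set, against 51.6 ± 1.81% in the WT set, lost its call in all 6 fits that left out a library.

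Members outside these lists also belonged to contractile proteins. Nexn codes for nexilin, an actin-binding protein of the Z-disc and the junctional membrane. Its 42-base exon (chr3:152249660-152249701) had 814 to 1455 reads a library and was included at 50.7, 62.0 and 70.1% in the Rbpms KO libraries, against 87.5, 88.3 and 90.8% in the WT libraries (adjusted p = 9.22e-43). Myl6 codes for a myosin light chain of smooth muscle and non-muscle cells. Its 45-base exon (chr10:128491720-128491764), which contains a stop codon and sets the end of the protein, was included at 60.8, 50.7 and 52.3% in the Rbpms KO libraries, against 20.8, 23.1 and 32.6% in the WT libraries (adjusted p = 7.68e-27). Smtn, whose product smoothelin marks contractile smooth muscle, had a 69-base exon (chr11:3520848-3520916) at 100% in each Rbpms KO library, against 68.9, 65.6 and 79.0% in the WT libraries. It had 21 to 41 reads a library, and its call was lost without any Rbpms KO library or without the second WT library. An overlapping 165-base form rose by 17.2 points and lost its call in the same fits.

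Markers of other cell types, including airway cells, which are not cells of the ventricle, differed between the genotypes. The summed RPKM of 8 markers of contractile smooth muscle was 355 to 461 in the Rbpms KO libraries and 1043 to 1214 in the WT libraries, and 5 of the 8 were lower. Acta2, the smooth muscle actin, averaged 197 RPKM in Rbpms KO and 875 RPKM in WT, while Des, shared with heart muscle, averaged 184 RPKM in Rbpms KO and 186 RPKM in WT. The summed RPKM of 7 airway secretory markers was 0.499 to 19.99 in the Rbpms KO libraries and 694 to 978 in the WT libraries, and all 7 were lower. The 6 heart muscle markers summed to 6985 to 10178 RPKM in the Rbpms KO libraries and 10789 to 11982 in the WT libraries, with 1 lower. Of 5 endothelial and 5 fibroblast markers, 2 each were higher in Rbpms KO, and none of the 3 blood markers tested passed (limma, adjusted p below 0.05). These values do not tell which cells or tissue in a sample gave the RNA. In whole tissue, fewer cells of a type and less RNA per cell cannot be told apart. The part of these markers in the inclusion differences, including those of Actn1, Mprip, Cald1, Smtn and Myl6, was not tested.

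Adhesion and extracellular matrix exons moved both ways. Of 23 tested in that list, 4 rose and 4 fell, which is 34.8% called beside 4.41% of all members, and the median absolute difference was 4.23 points. The 273-base exon of Fn1 (chr1:71613763-71614035) has the length of the extra domain B exon of fibronectin, a matrix glycoprotein. It was included at 28.2, 31.0 and 25.6% in the Rbpms KO libraries, against 49.9, 49.1 and 53.3% in the WT libraries, a fall of 22.5 ± 2.02 points (adjusted p = 2.16e-13). A 270-base exon of Fn1, named after its values were seen, was at 46.7% in the Rbpms KO set and 51.0% in the WT set and did not pass (adjusted p = 0.70). Ppfia1 codes for liprin-alpha-1, a scaffold at focal adhesions. Its 75-base exon (chr7:144514872-144514946) was included at 12.2, 2.2 and 1.5% in the Rbpms KO libraries, against 41.9, 51.2 and 44.2% in the WT libraries (adjusted p = 2.36e-08), from 22 to 34 reads a library.

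Col6a3 codes for a chain of collagen VI. Its 600-base exon (chr1:90813215-90813814) was included at 96.2, 96.4 and 86.7% in the Rbpms KO libraries, against 64.7, 52.4 and 65.2% in the WT libraries (adjusted p = 0.00151). Its call was lost without the first or second Rbpms KO library or the second WT library. Fbln2, the gene of the elastic fibre protein fibulin-2, had a 141-base exon at 11.3 ± 4.08% in the Rbpms KO set, against 29.1 ± 5.97% in the WT set, with its call lost without the first Rbpms KO library. A pair of separate Postn exons, of 81 and 84 bases, rose by 10.6 ± 2.70 and 9.03 ± 2.10 points. Postn, the gene of the matrix protein periostin, gave 1619 to 2725 reads a library at these exons, the depth behind such small differences.

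In the calcium list, 3 of 29 exons tested rose, 2 fell and 24 did not pass, which is 17.2% called beside 4.41% of all members, with a median absolute difference of 4.17 points. The falls were the 33-base exons of Camk2g and Camk2d, kinases that respond to calcium and calmodulin. In Camk2d this exon, in the variable linker between the kinase and association domains, is known for carrying a nuclear localisation signal. The printed sequences of the pair are identical at 26 of 33 bases, 78.8%, and each codes for 11 residues. Camk2g inclusion was 0.0, 4.9 and 6.1% in the Rbpms KO libraries, against 50.6, 43.5 and 39.5% in the WT libraries, a fall of 40.9 ± 3.74 points (adjusted p = 2.62e-11). Camk2d inclusion was 2.2, 3.2 and 3.7% in the Rbpms KO libraries, against 16.4, 15.4 and 15.9% in the WT libraries, a fall of 12.9 ± 0.527 points (adjusted p = 0.000422). Both falls were called in all 6 fits that left out 1 library. A 33-base exon of Camk2a, named after its values were seen, was at 85.9% in the Rbpms KO set and 76.2% in the WT set and did not pass (adjusted p = 0.70).

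The rises in that list were in Asph, Trdn and Camk2d. Asph codes for a family that includes junctin and a hydroxylase, proteins of the calcium release unit and the reticulum. Its 42-base exon was included at 22.4, 26.5 and 28.5% in the Rbpms KO libraries, against 7.0, 5.6 and 10.1% in the WT libraries, a rise of 18.2 ± 2.23 points (adjusted p = 4.84e-12). A 60-base exon of Trdn, the gene of triadin, was at 65.2 ± 1.72% in the Rbpms KO set, against 50.2 ± 6.29% in the WT set, and its call was lost in all 6 fits that left out a library. No exon tested of Cacna1c or Ryr2, genes of heart calcium channels, passed. These genes, too, were named after their values were seen.

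Camk2d was among 4 genes with called exons in both directions, along with Clta, Clasp1 and Lmo7. The 60-base exon of Camk2d rose to 30.6, 35.2 and 34% in the Rbpms KO libraries, against 23.0, 21.6 and 20.3% in the WT libraries (adjusted p = 0.0146), and its call held in 1 of 6 fits that left out a library, the one without the first Rbpms KO library. Clta codes for clathrin light chain A. Its 54-base exon was included at 1.7, 3.8 and 1.9% in the Rbpms KO libraries, against 10.4, 11.3 and 12.4% in the WT libraries (adjusted p = 4.08e-08). Its 36-base exon was included at 22.5, 21.9 and 22.4% in the Rbpms KO libraries, against 15.3, 11.3 and 12.1% in the WT libraries (adjusted p = 0.0031), a call lost without the first Rbpms KO library or the second or the third WT library. In Camk2d and in Clta the opposed exons share a flanking exon in the deposited table, so their levels may share reads.

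Lmo7 codes for a LIM domain protein at adherens junctions. Its 720-base exon (chr14:101886937-101887656) rose to 32.4, 28 and 25.7% in the Rbpms KO libraries, against 10.7, 11.3 and 8.2% in the WT libraries (adjusted p = 3.79e-16). Its 282-base exon rose by 19.0 ± 1.58 points and shares a flanking exon with the 720-base exon. A separate 57-base exon of Lmo7 stood at 17.8 ± 3.65% in the Rbpms KO set, against 33.1 ± 2.82% in the WT set. That fall was called only without the second Rbpms KO library when a library was left out. Clasp1, which stabilises microtubule ends, had a 102-base exon at 18.5 ± 1.75% in the Rbpms KO set, against 33.3 ± 7.57% in the WT set. Its 69-base exon was at 26.7, 16.8 and 32.3% in the Rbpms KO libraries, against 9.2, 13.6 and 17.2% in the WT libraries. The sets of the 69-base exon overlap, and its call was lost without the first or the third Rbpms KO library or the first or second WT library.

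**Figure D3:**
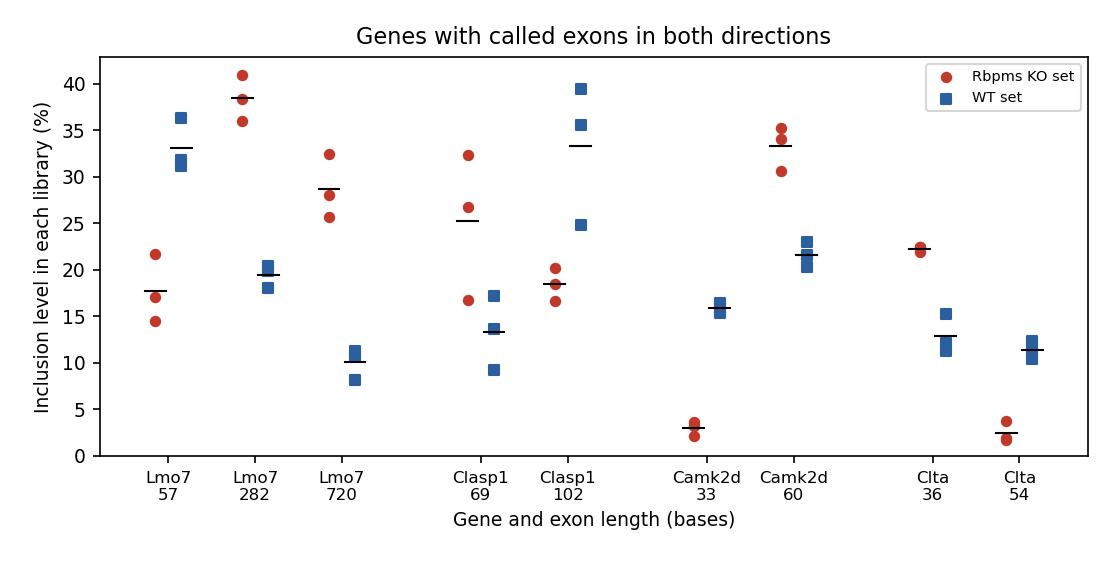
Inclusion level (%) in each library for the 9 called exons of Lmo7, Clasp1, Camk2d and Clta, labelled with gene and exon length in bases. Red circles are the 3 Rbpms KO libraries, blue squares the 3 WT libraries and black bars the means, and each gene has at least 1 exon with the red points higher and 1 with them lower.

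Among genes of membrane traffic and microtubules, 4 of 33 exons tested rose and 3 fell, which is 21.2% called beside 4.41% of all members, with a median absolute difference of 6.47 points. Besides Clta and Clasp1, a 150-base exon of Picalm (chr7:90182219-90182368), the gene of a clathrin assembly protein, rose by 15.7 ± 2.48 points to 33.8 ± 2.37% in the Rbpms KO set, against 18 ± 3.59% in the WT set (adjusted p = 8.22e-08). A 78-base exon of Dnm1l, the gene of the mitochondrial fission enzyme, was at 19.3 ± 6.92% in the Rbpms KO set, against 36 ± 1.76% in the WT set. Its call held only without the first Rbpms KO library when a library was left out. A 3180-base exon of the microtubule protein gene Map4 was at 10.7, 9.9 and 4.2% in the Rbpms KO libraries, against 1.0, 0.0 and 1.1% in the WT libraries (adjusted p = 9.26e-08). This call was lost under limma on the levels.

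In genes of RNA-binding proteins, 1 of 32 exons tested rose, none fell and 31 did not pass. The share called, 3.12%, was near the 4.41% of all members, and the median absolute difference was 2.12 points. The rise was a 54-base exon of Mbnl2 (chr14:120395712-120395765), a splicing regulator in which this exon is known to affect nuclear localisation. It was included at 58.1, 59.3 and 51.6% in the Rbpms KO libraries, against 30.4, 30.1 and 30.7% in the WT libraries (adjusted p = 0.038). With 28 to 44 reads a library, its call was lost in all 6 fits that left out 1. A 54-base exon of Mbnl1, named after its values were seen, was at 29.4% in the Rbpms KO set and 20.4% in the WT set and did not pass (adjusted p = 0.66).

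In the list of transcription factors and signalling proteins, 4 of 29 exons rose and 1 fell, which is 17.2% called beside 4.41% of all members, and the median absolute difference was 3.27 points. The fall was the 81-base exon of Map3k7, which codes for the kinase TAK1. Its inclusion was 11.9, 6.5 and 10.8% in the Rbpms KO libraries, against 38.2, 33.3 and 35.9% in the WT libraries, a fall of 26.1 ± 2.17 points (adjusted p = 8.68e-11). Arhgef7, the gene of an exchange factor for small GTPases, rose at a 225-base exon (chr8:11817660-11817884) to 89.4 ± 3.10% in the Rbpms KO set, against 69.8 ± 2.70% in the WT set. A 192-base exon of the kinase gene Map4k4 rose by 17.6 ± 2.80 points. Tead1, the gene of a DNA-binding partner of Yap1, had a 63-base exon at 44.7, 49.9 and 34.6% in the Rbpms KO libraries, against 17.6, 18.1 and 30.9% in the WT libraries. The sets do not overlap, but the call was lost without the first or second Rbpms KO library or the first or second WT library.

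Several of the largest changes lay in genes of no list. Ect2 codes for the RhoA activator that positions the cleavage furrow in cytokinesis. Its 93-base exon (chr3:27148795-27148887) was included at 47.1, 40.0 and 48.1% in the Rbpms KO libraries, against 90.9, 87.5 and 79.3% in the WT libraries, a fall of 40.8 ± 4.28 points (adjusted p = 4.63e-06) called in all 6 fits that left out 1 library. Mlf1 had a 45-base exon with 679 to 893 reads a library, included at 68.4, 77.2 and 74.3% in the Rbpms KO libraries, against 41.9, 42.1 and 50.3% in the WT libraries (adjusted p = 1.49e-31). The 42-base exon of Bnip3l (chr14:66988900-66988941), the gene of a mitophagy receptor, was included at 28.8, 30.9 and 34.8% in the Rbpms KO libraries, against 3.3, 3.8 and 2.5% in the WT libraries (adjusted p = 1.58e-09), and it contains a stop codon.

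Vegfa, the gene of an angiogenic growth factor, fell at the 72-base exon that adds a heparin-binding stretch. Inclusion was 7.8, 5.4 and 8.5% in the Rbpms KO libraries, against 32.3, 28.7 and 38.0% in the WT libraries (adjusted p = 2.99e-13). A 54-base form with the same start in the transcript fell by 7.80 ± 1.75 points, a call that held only without the second WT library when a library was left out. Nbr1, the gene of an autophagy receptor, had a 111-base exon at 32.8 ± 8.89% in the Rbpms KO set, against 62.7 ± 11.6% in the WT set, with the call lost without the second or the third Rbpms KO library or the second WT library. A 69-base exon of Sec24c, the gene of a coat protein of export vesicles, was at 35.9 ± 9.0% in the Rbpms KO set, against 66.3 ± 5.68% in the WT set. Its call was lost without the second or the third Rbpms KO library or the first or second WT library.

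The remaining exons of the largest rises had shallow coverage. Plekhm2, the gene of an adaptor that links lysosomes to kinesin, had a 60-base exon at 59.4 ± 2.15% in the Rbpms KO set, against 33.7 ± 9.04% in the WT set, from 31 to 51 reads a library. When a library was left out, its call held only without the first WT library. A 2976-base exon of the coactivator gene Ncoa6 was at 98.2 ± 3.12% in the Rbpms KO set, against 77.4 ± 7.25% in the WT set, a call that held only without the first library of either set. Of the 89 calls, 6 had sets that overlap, in Epb41 (450 bases), Nexn (189 bases), Ktn1 (72 bases), Enah, Clasp1 (69 bases) and Ltbp3, and Larp4b had an SD of 12.7 points in each set.

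The share of members called was given by length with no test, and depth and inclusion differ between lengths. Of members of 33 to 60 bases, 26 of 301 tested were called, 8.64%. From 63 to 120 bases it was 36 of 880, 4.09%, and from 123 to 180 bases 11 of 513, 2.14%. From 183 bases up it was 16 of 325, 4.92%. Just inside the length limit, 5 of 22 exons of 33 bases and 3 of 32 exons of 36 bases were called. All 5 exons of 33 bases fell, in Camk2g, Ank3, Ppfibp1, Mff and Camk2d. Just outside it, 3 of 18 exons of 30 bases and 0 of 17 exons of 27 bases were called.

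Frame-keeping exons were more often alternative than frame-shifting exons of the same size range. Among exons with at least 20 junction reads in each library, the share with an inclusion between 10 and 90% was 13.99, 14.9 and 15.1% of 6027 frame-keeping exons in the Rbpms KO libraries and 14.2, 14.1 and 16.2% in the WT libraries. For 7586 frame-shifting exons it was 7.18, 8.03 and 8.66% in the Rbpms KO libraries and 6.93, 7.05 and 7.72% in the WT libraries. For 264 microexons the share was higher still, at 32.2, 30.7 and 32.6% in the Rbpms KO libraries. In the WT libraries it was 32.2, 32.6 and 31.4% for microexons. Frame-keeping exons exceeded frame-shifting exons by 7.16 ± 0.688 points (SD), in 6 of 6 libraries (two-sided exact sign-flip permutation test, p = 0.03125, the smallest that 6 libraries allow). The libraries read the same exons, so this p and SD cover libraries only and do not measure how exons vary within a class. The knockout did not detectably shift this share, with 14.7 ± 0.600% in the Rbpms KO set and 14.8 ± 1.14% in the WT set (two-sided exact permutation test, p = 0.8, where the smallest for 3 against 3 is 0.1).

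Calls per exon tested differed between the classes, and no test was made of those shares. Beside 4.41% of frame-keeping exons, 1.4% of 2071 frame-shifting exons (29) and 11% of 146 microexons (16) were called, the microexons 4.11% higher and 6.85% lower in Rbpms KO. Among exons with a mean inclusion between 10 and 90%, 73 of 874 frame-keeping and 18 of 509 frame-shifting exons were called, 8.35 and 3.54%. With at least 50 reads in each library as well, it was 59 of 396 and 15 of 196, 14.9 and 7.65%, at median depths of 116 and 102 reads. Of microexons, 15 of 87 were called with the first filter and 12 of 48 with both, 17.2 and 25%.

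**Figure D4:**
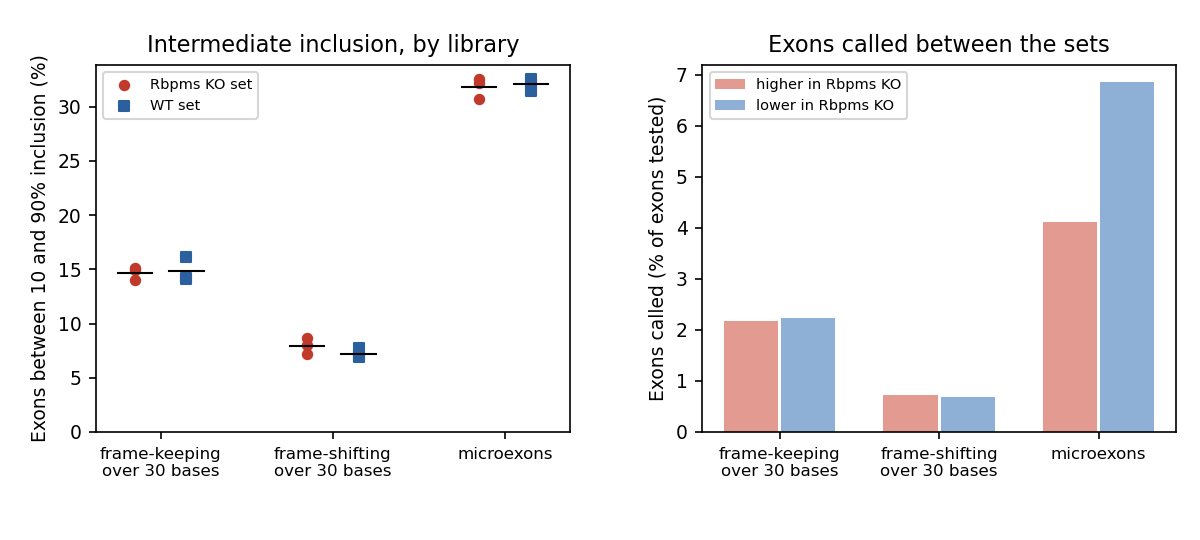
Left, the share of exons with an inclusion between 10 and 90% (vertical axis, %) in each Rbpms KO library (red circles) and WT library (blue squares) by exon class, with bars at the means. Right, the share of exons tested that was called higher (light red) or lower (light blue) in Rbpms KO (vertical axis, %), where frame-keeping exons reached 2.18 and 2.23% and frame-shifting exons 0.724 and 0.676%.

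Most members lie in coding sequence. The annotation has 82.9% of the 10361 members coding throughout, against 74.6% of the frame-shifting exons, and 80 of the 89 called exons were coding throughout. An annotated stop codon lies in 154 of the 2019 members tested and in 6 called exons, those of Mprip, Nap1l4, Slmap, Smtn (165 bases), Bnip3l and Myl6. A length that is a multiple of 3 does not by itself keep the protein's end, as these exons show. The called exon of Ociad1 is untranslated, and that of Actb belongs to a noncoding transcript.

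The pair of CAC triplets that Rbpms is known to bind, written CAC, 1 to 12 of any base, CAC on the transcript strand, was searched in the exons themselves. It occurred in 23.9% of the members tested, in 20.5% of the exons that rose (9 of 44) and in 11.1% of those that fell (5 of 45). The share depends on length. In exons of 33 to 60 bases it was 6.64% of all tested and 0 of 26 called. In exons of 63 to 120 bases it was 16.02% of all tested, 1 of 16 that rose and 0 of 20 that fell. In exons of 123 to 180 bases it was 28.8% of all tested, 1 of 8 that rose and 2 of 3 that fell, and in exons of 183 bases or more 53.5% of all tested, 7 of 9 that rose and 3 of 7 that fell. The introns beside the exons were not analysed here.

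Genes with a called exon passed the test of gene level about as often as all genes. A gene that did not pass is not shown to be unchanged in level. Of the 73 genes with a called exon, 5 changed in RPKM (limma on log2(RPKM + 0.5), adjusted p below 0.05), which is 6.85%, beside 6.37% of all 12911 genes tested. The 2 genes that rose and the 3 that fell stand beside 2.38% and 3.99% of all genes. Postn rose to 248 RPKM in Rbpms KO, against 178 RPKM in WT. Nasp, the gene of a histone chaperone, was lower at 9.83 RPKM in Rbpms KO and 16.3 RPKM in WT, and its 975-base exon fell by 23.3 ± 5.48 points. Pnkd and Smtn were also lower. Ttn and Camk2g, each with a large fall in inclusion, showed no such call. Ttn had 32.3 RPKM in Rbpms KO and 30.8 RPKM in WT, and Camk2g 12.3 RPKM in Rbpms KO and 13.6 RPKM in WT. The median absolute log2 difference was 0.163 for the 73 genes and 0.145 for all genes. Without WT replicate 1 or WT replicate 2 the count of 5 became 1, without Rbpms KO replicate 3 it became 2, and without WT replicate 3 it became 8.

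**Figure D5:**
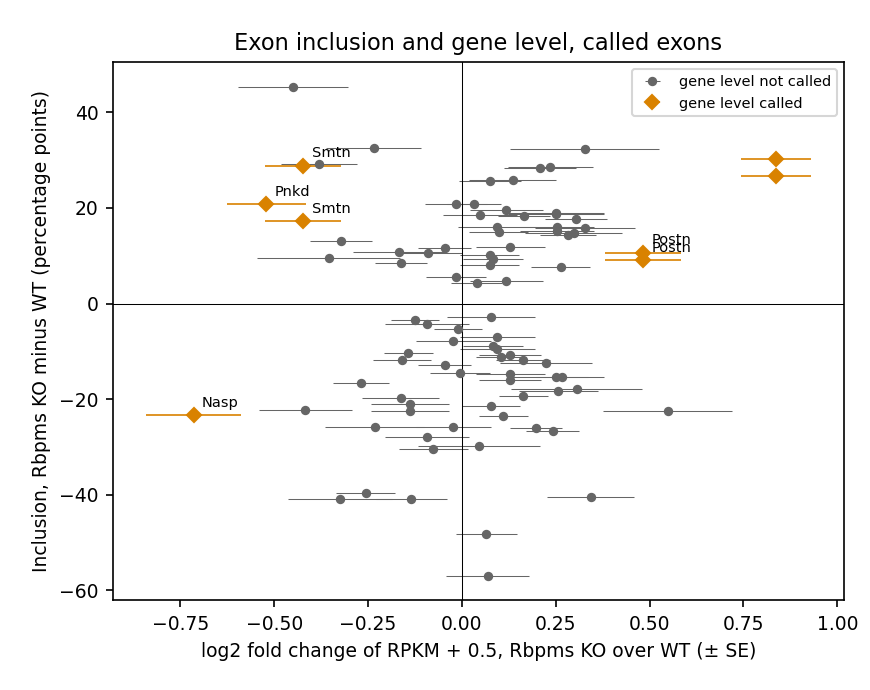
Difference in inclusion of each called exon (vertical axis, percentage points, Rbpms KO minus WT) against the log2 fold change of its gene's RPKM + 0.5 (horizontal axis, Rbpms KO over WT, bars give the SE). Orange diamonds are exons of the 5 genes whose level was called and grey points the others, and grey points with large inclusion differences of either sign lie near a log2 fold change of 0.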

How the data were processed

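The splicing tables deposited by the authors come from rMATS, per their file name, and hold, per the file headers, junction read counts and inclusion levels for 3 libraries in each of 2 sets. The p-value and FDR of each event are the authors' own, per the file headers. Gene expression was deposited by the authors as RPKM. Per the submitters' processing notes, FastQC 0.11.4, featureCounts 1.6.0 and edgeR 3.30.1 were used, with GRCm38 and mm10 as builds. The aligner and rMATS version: not given in the sources used here.

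Where commas between counts had been lost in a cell, counts were cut so that they gave the printed levels within 0.00051. Of 56560 cell pairs, 4732 allowed several readings, and the most even totals were kept. The event with most reads was kept per exon. Exons with at least 20 junction reads in each library and a mean inclusion of 2 to 98% were tested with a quasi-binomial model whose dispersion was moderated on depth (limma 3.58.1, R 4.3.3; floor of 1), and p-values were adjusted over 4236 exons. The moderated dispersion equalled the depth trend. Differences are of the deposited levels, in percentage points, Rbpms KO set minus WT set. The SE comes from the spread of the levels. The model was tested on simulated data with the same extra spread for every exon, unlike the real exons. It recovered 15.55% of shifts of 10 points and 54.3% of shifts of 20 points. An exon that did not pass is therefore not shown to be unchanged. RPKM were compared with limma as log2(RPKM + 0.5), for genes that reached 0.5 RPKM in 3 libraries or more. Coding status and sequences came from GENCODE mouse release 21.

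Named exons were the 12 largest rises and 12 largest falls among calls without overlap between sets, 1 a gene, and up to 4 called exons a list. Some of these are not reported here. Further exons are given for genes with several calls and for the largest calls outside the lists, chosen after their values were seen. The members, the lists and the tests were chosen with earlier results of these data known. Settings tried were other depth and inclusion filters, limma on levels, the authors' FDR, exon body reads, all events, exons with 1 reading of the counts, leaving out a library, and other RPKM settings. Robust moderation was added after seeing the data.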

Additional observations from a re-analysis of the deposited data

How the results depend on the processing

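No exon called among the members changed direction in any fit. The counts of 44 rises and 45 falls stayed within 1.5 times under each depth, inclusion, dispersion, read type and event setting, under limma on levels and with the authors' FDR. Leaving out 1 library gave 20 to 31 rises and 26 to 33 falls. Across those 6 fits, 39 exons were called each time, 17 higher and 22 lower, and 38 of them under every other setting that tested them. The authors' FDR lost 9 calls, as the authors' deposited table has it, and limma on levels lost 29. The cause was not tested. The excess of intermediate inclusion was 6.91 to 7.31 points without 1 library, each with an exact permutation p of 0.0625, the smallest that 5 libraries allow. That p, too, covers libraries that read the same exons. The count of 5 genes with a changed level ran from 1 to 8 without 1 replicate. No paired analysis was possible because the cells of the splicing table carry no replicate numbers. For RPKM, a replicate block gave 3 genes in place of 5. Correlations of same-numbered deviations were 0.204, -0.281 and 0.112. With 3 libraries a genotype, these values cannot tell whether the numbers pair the libraries. Depth limits what could be called, since a member tested had a median of 60 junction reads a library.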

Other observations

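Smaller changes were also called in genes not described so far. An exon of 36 bases in Epb41, the gene of the membrane skeleton protein 4.1R, was at 0.0, 0.0 and 1.0% in the Rbpms KO libraries, against 15, 11.8 and 3.0% in the WT libraries (adjusted p = 2.22e-05), a call lost without the first Rbpms KO library and under limma on the levels. A 33-base exon of Ppfibp1, which codes for a partner of the liprin of Ppfia1, fell by 18.3 ± 1.38 points to 11.9 ± 1.72% in the Rbpms KO set, against 30.2 ± 1.67% in the WT set, and was called in all 6 fits that left out a library. A 69-base exon of Fip1l1, the gene of a polyadenylation factor, was at 35.4 ± 7.14% in the Rbpms KO set, against 16.9 ± 3.61% in the WT set, with the call lost without the first Rbpms KO library or the second WT library. Exons of the mitochondrial fission genes Mff and Dnm1l were both lower in the Rbpms KO set, at 20.9 ± 2.91% against 35.5 ± 3.78% in the WT set for the 33-base Mff exon, whose call was lost in all 6 fits that left out a library.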
